A study of Mus musculus with 6 samples.

Results

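The S100 genes encode small proteins that bind calcium through paired EF-hand loops, and 10 of them were followed here in mouse lung: S100a1, S100a4, S100a6, S100a8, S100a9, S100a10, S100a11, S100a13, S100a16 and S100g. They were chosen by symbol, as the rows of these 10 genes among the 24061 rows of a table of gene counts, and all 10 had a row. The samples were 3 lungs of genotype CCSP/TGFalpha, called TGFalpha lungs below, and 3 control lungs of genotype CCSP/-, and both genotypes had been given doxycycline, 3 weeks in all. CCSP stands for club cell secretory protein, and its promoter serves in mouse models to drive transgenes in lung epithelial cells. TGFalpha is a ligand of the epidermal growth factor receptor. The CCSP element and the doxycycline were thus common to both groups, and the series is about fibrosis induced in the lung by TGFalpha. The labels give no strain, age or sex and do not say whether each library came from a separate animal, so the p-values below measure only the spread between these libraries.

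S100 proteins mostly work as dimers that change shape on binding calcium and then grip a partner protein, such as an annexin, a myosin heavy chain or a channel. Some also leave the cell and act on surface receptors, among them the receptor for advanced glycation end products (Ager) and Toll-like receptor 4. In lung, S100a8 and S100a9 are known from neutrophils and monocytes, S100a4 from fibroblasts and macrophages, and S100a6, S100a10 and S100a11 from many epithelial and stromal cells.

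None of the 10 S100 genes passed the test for a difference between TGFalpha and control lungs, and their levels overlapped between the groups in every case. The test was the quasi-likelihood test of edgeR with Benjamini-Hochberg adjustment over 16089 genes, called at an adjusted p under 0.05. By it 0 of the 10 members were called higher and 0 lower, where 5.03% of all tested genes were higher and 3.29% lower, or 8.33% in either direction. At an unadjusted p under 0.05 the members also gave 0 of 10, against 27.0% of all tested genes, and DESeq2 and limma-voom likewise gave 0 of 10 at that level. At an adjusted p under 0.05 DESeq2 called 0 members and 14.5% of all genes, and limma-voom called 0 members and 8.7% of all genes. No member had its 3 TGFalpha values all above or all below its 3 control values, as 33.2% of tested genes did. The fitted log2 fold changes, TGFalpha over control, ran from -0.57 for S100a8 to 0.77 for S100a6, with 7 positive, 3 negative and a median of 0.22, where the median of all tested genes was 0.01. The adjusted p-values ran from 0.303 for S100g to 0.897 for S100a1. Over the 17 alternative ways of processing, the smallest adjusted p of any member was 0.104, that of S100a10 without TGFalpha library 3.

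**Figure D1:**
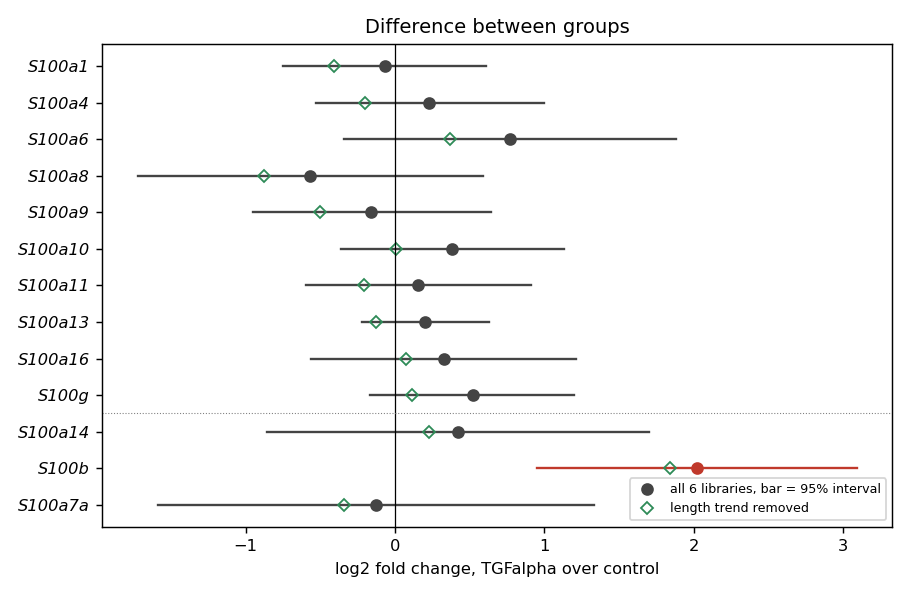
Log2 fold change of each S100 gene, TGFalpha over control, with its 95% confidence interval from the edgeR fit, for the 10 members and, below the dotted line, S100a14, S100b and S100a7a. Open diamonds give the value with the length trend removed, and red marks the called gene. The interval of every member includes 0, from S100a6 at 0.77 down to S100a8 at -0.57, while that of S100b, at 2.02, lies between 0.95 and 3.09.

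The members were well counted but varied widely among libraries of the same group. Counts per member and library lay between 237 and 27978. CPM is a gene's count per 1000000 counts of the scaled library. The SD of log2 CPM within groups was above the median of all tested genes, 0.28, for 9 of the 10 members, and the members' own median was 0.551. The exception was S100a13, with 0.228. For S100a6 the interval allowed any fold between 0.789 and 3.69, and for S100a8 between 0.303 and 1.51, so no size within these bounds could be told from no change. For S100a13 the interval was narrowest and lay between 0.86-fold and 1.54-fold.

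Facts of the libraries bear on these values. Totals ran from 21479006 to 24914322 counts per library. The 13 skeletal muscle genes summed to 3424, 90.8 and 80.8 CPM in TGFalpha libraries 1 to 3, against 1969.7, 70.2 and 83.5 CPM in control libraries 1 to 3, so the library numbered 1 of each group stood apart. Surfactant protein C (Sftpc), a defining transcript of alveolar type 2 cells, was at 3456 CPM or more in all 6 libraries. Tgfa itself had 26.6, 25.9 and 29.9 CPM in TGFalpha lungs and 26.4, 22.6 and 28.4 CPM in control lungs (log2 fold change 0.09 ± 0.16 SE, adjusted p 0.739). Whether reads from the transgene could enter the Tgfa row is not given in the sources used here, so this row does not check the genotype labels.

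Transcript length also moved with the libraries. All 10 members have short messages, with longest transcripts of 480 to 1127 bases, where the median of tested genes was 3314 bases. Among 568 genes with a longest transcript under 1200 bases and a mean log2 CPM above 3, the median deviation from a gene's own mean was 0.51, 0.14 and -0.08 (log2 CPM) in TGFalpha libraries 1 to 3, against -0.05, -0.32 and -0.19 in control libraries 1 to 3. Their median log2 fold change was 0.38, and that of genes above the same level with 6000 bases or more was -0.19. Over all 1090 tested genes under 1200 bases it was 0.29. With the length trend removed, the members' median log2 fold change was -0.17, with 4 positive and 6 negative, against 0.22 as fitted. Without TGFalpha library 1, where short genes stood highest, it was 0.02. No member was called in either setting, and no direction is drawn for the family. The part of RNA quality in this trend was not tested.

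**Figure D2:**
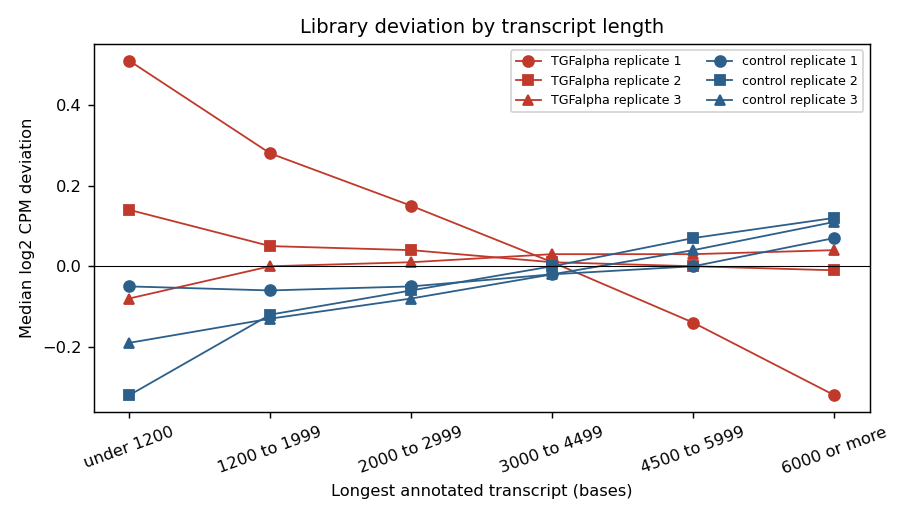
Median deviation from each gene's own mean (log2 CPM) by class of longest transcript length in bases, a line for each of the 6 libraries. In the class under 1200 bases, which holds all 10 S100 members, the libraries spread from 0.51 in TGFalpha library 1 to -0.32 in control library 2.

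**Figure D3:**
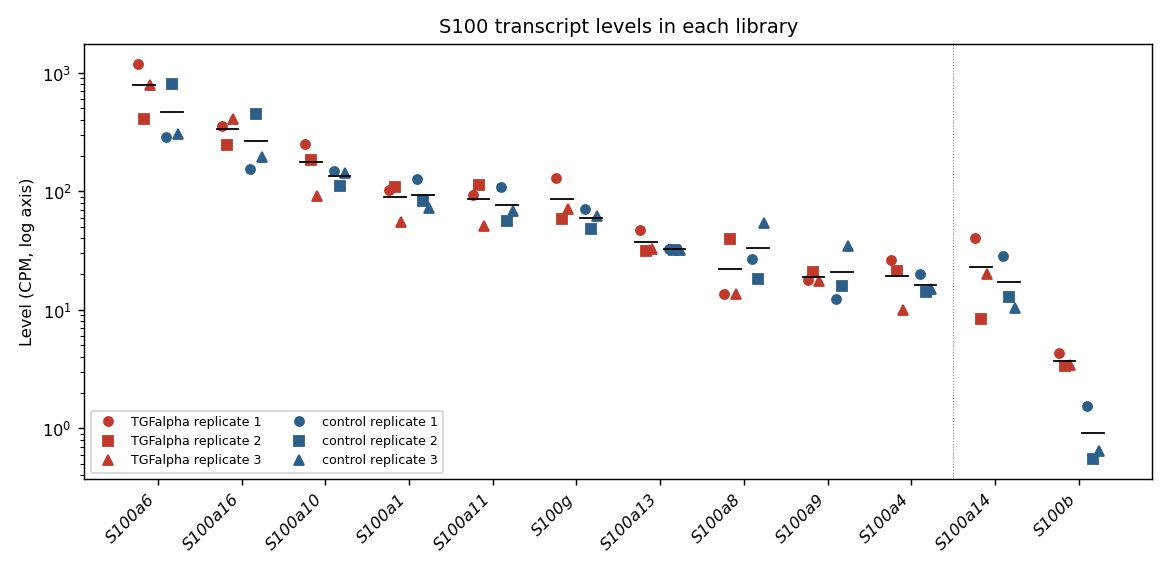
Level in CPM on a log axis of the 10 S100 members, ordered by mean, and of S100a14 and S100b right of the dotted line. Each point is a library, the 3 TGFalpha libraries left of the 3 control libraries, and a bar marks the mean of each group. The groups overlap for every member and for S100a14, and not for S100b.

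S100a8 and S100a9 form calprotectin, the calcium- and zinc-binding heterodimer that fills the cytoplasm of neutrophils and is released in inflammation. Both genes lie on chromosome 3 (GRCm38), S100a8 at 90669071-90670034 and S100a9 at 90692630-90695721. Their promoter windows are shown because the pair is usually expressed together. Each runs from 250 bases before to 50 after the RefSeq start, on GRCm38.p6, at chr3:90668821-90669120 on the plus strand for S100a8 and chr3:90695672-90695971 on the minus strand for S100a9, and capitals mark matches to the motifs described below.
S100a8: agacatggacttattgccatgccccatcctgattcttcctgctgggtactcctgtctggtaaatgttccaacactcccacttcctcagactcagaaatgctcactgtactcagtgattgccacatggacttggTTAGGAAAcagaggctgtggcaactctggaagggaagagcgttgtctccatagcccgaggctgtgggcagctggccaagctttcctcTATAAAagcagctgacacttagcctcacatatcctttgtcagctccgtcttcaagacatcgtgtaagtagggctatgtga
S100a9: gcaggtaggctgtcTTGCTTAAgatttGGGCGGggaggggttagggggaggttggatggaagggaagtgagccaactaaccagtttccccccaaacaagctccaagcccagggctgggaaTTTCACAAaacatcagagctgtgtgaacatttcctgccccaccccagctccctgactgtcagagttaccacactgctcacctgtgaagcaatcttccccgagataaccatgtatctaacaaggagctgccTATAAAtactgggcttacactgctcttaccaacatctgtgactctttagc
The search covered both strands and 4 motifs. The AP-1 motif was spelled TGANTCA. The TATA box was spelled TATAAA, the GC box GGGCGG. For C/EBP factors the letters were TTNNGNAA. No motif overlapped another in the windows shown. TATAAA stands at position 221 of the S100a8 window and 251 of the S100a9 window, where 13.6% of 32851 mouse windows hold it. TTNNGNAA stands at position 134 in S100a8 and at 15 and 121 in S100a9, and 40.7% of all windows hold it. S100a9 also has GGGCGG at position 28, found in 35.7% of windows. A match is a description of these letters and not of a bound site.

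S100a8 had 13.7, 39.4 and 13.7 CPM in TGFalpha lungs, against 26.7, 18.3 and 54.1 CPM in control lungs. Its means were 22.3 ± 14.8 CPM in TGFalpha lungs and 33.0 ± 18.7 CPM in control lungs (SD, n = 3 each), a log2 fold change of -0.57 ± 0.51 (SE, adjusted p 0.502 by edgeR). Control library 3 was highest and TGFalpha library 2 next, so high values occurred in both groups. The log2 fold change was -0.02 without control library 3 and -1.26 without TGFalpha library 2 (adjusted p 0.132). S100a9 had 17.8, 21 and 17.6 CPM in TGFalpha lungs, against 12.4, 15.9 and 34.5 CPM in control lungs (log2 fold change -0.16 ± 0.35 SE, adjusted p 0.804). The 3 TGFalpha libraries lay close together, at 18.8 ± 1.88 CPM (SD), while the control libraries spread 2.77-fold. Without control library 3 the S100a9 value turned to 0.40.

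Neutrophil markers were set beside the pair. Of the 24 genes listed, 23 had a row (Ly6g had none), 21 were tested, 1 was called higher and 0 lower, against 5.03% and 3.29% of all tested genes, with a median log2 fold change of -0.13. The called gene was Prtn3, a protease of neutrophil precursors, with 4.97, 5.76 and 1.3 CPM in TGFalpha lungs, against 0.562, 0.504 and 0.228 CPM in control lungs (log2 fold change 3.19 ± 0.65 SE, adjusted p 0.0272). Its call was lost without TGFalpha library 1 (adjusted p 0.0896) or 2 (0.0776) and without control library 2 (0.102) or 3 (0.123), and by limma-voom (0.0913). Granule genes made at the same stage were near 0 and were not tested. Mpo had 0.298, 0.329 and 0.293 CPM in TGFalpha lungs and 0.12, 0 and 0 CPM in control lungs. Its counts were 8 or fewer in each library. Elane was at 0.0822 CPM or less in every library. Camp, an antimicrobial granule peptide, had an adjusted p of 0.13, and Mmp9, a gelatinase, 0.159. The summed list lay between 492 and 1167 CPM in TGFalpha lungs and between 640.3 and 1449 CPM in control lungs. Lcn2, a listed gene not limited to neutrophils, gave 540.3 of the 1167 CPM in TGFalpha library 2. In control library 1 it gave 825 of the 1449 CPM.

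The library order of S100a8 and S100a9 was set beside 3 genes of mature neutrophils that were chosen after their values were seen. Csf3r, the receptor of granulocyte colony-stimulating factor, had 16.4, 35.5 and 21.1 CPM in TGFalpha lungs and 29.1, 36.6 and 45.6 CPM in control lungs. Cxcr2, a chemokine receptor, had 37.1, 40.9 and 33.1 CPM in TGFalpha lungs and 37.7, 44.8 and 50.3 CPM in control lungs. Retnlg had 5.95, 5.3 and 4.99 CPM in TGFalpha lungs and 5.54, 6.28 and 10.2 CPM in control lungs. All 3 were highest in control library 3, as were S100a8 and S100a9. The orders differed below that: the next highest library was control 2 for these 3 genes and TGFalpha 2 for S100a8 and S100a9. Other granule genes of neutrophils had other orders. Mmp8 (5.87 CPM), Camp (3.81 CPM) and Ngp (5.82 CPM) were highest in TGFalpha library 3. Ltf (75.5 CPM) was highest in TGFalpha library 2 and Mmp9 (22.1 CPM) in control library 2. The part of neutrophil number in the 2 S100 genes was not tested. In bulk lung, fewer cells of a type and less RNA per cell cannot be told apart. Lcn2, which lung epithelium and macrophages also make, followed another order, with 127, 540.3 and 144 CPM in TGFalpha lungs and 825, 434 and 216 CPM in control lungs.

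Known inducers of the pair were examined too. Of 18 listed cytokines, transcription factors and prostaglandin enzymes, 13 were tested. Of these 1 was called higher and 0 lower, against 5.03% and 3.29% of all tested genes. Their median log2 fold change was -0.18. Csf3 was at 0 in every library. Ptgs2, the inducible cyclooxygenase, had 178, 232 and 149 CPM in TGFalpha lungs, against 89.5, 113 and 75.1 CPM in control lungs (log2 fold change 1.01 ± 0.22 SE, adjusted p 0.0317). The groups did not overlap for Ptgs2, but its call was lost without TGFalpha library 1 (0.0817) or 2 (0.078) and without control library 1 (0.0627), 2 (0.065) or 3 (0.142). Cebpa, a myeloid and epithelial transcription factor, had an adjusted p of 0.138.

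S100a6, or calcyclin, binds annexins and the calcyclin-binding protein and is known from proliferating and stromal cells, and S100a16 is a widely expressed member of the family. S100a6 lies at 90612894-90614414 and S100a16 at 90537254-90543151 on chromosome 3. Their promoter windows are shown because the 2 genes had the same 3 highest libraries and the same lowest, a set that no other member had. The windows are chr3:90612644-90612943 for S100a6 and chr3:90540896-90541195 for S100a16, the second of its 2 windows, both on the plus strand.
S100a6: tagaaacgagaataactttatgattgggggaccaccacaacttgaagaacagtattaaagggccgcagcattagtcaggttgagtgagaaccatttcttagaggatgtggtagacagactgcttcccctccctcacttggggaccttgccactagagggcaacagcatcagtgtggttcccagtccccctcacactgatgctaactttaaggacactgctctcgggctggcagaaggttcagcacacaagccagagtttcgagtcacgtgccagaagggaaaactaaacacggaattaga
S100a16: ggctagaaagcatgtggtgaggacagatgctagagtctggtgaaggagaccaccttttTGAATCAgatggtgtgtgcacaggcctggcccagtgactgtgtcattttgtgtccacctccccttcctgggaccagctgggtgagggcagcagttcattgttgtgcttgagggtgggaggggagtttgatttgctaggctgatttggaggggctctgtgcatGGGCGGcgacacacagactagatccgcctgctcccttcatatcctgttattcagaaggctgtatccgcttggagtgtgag
The S100a16 window shown holds TGANTCA at position 59, as 7.81% of all windows do, and GGGCGG at position 221. The other S100a16 window, not shown, holds none of the 4 motifs. The S100a6 window holds none of the 4 motifs. Among the 9 members with a window, TGANTCA occurred in S100a16 and S100a11, TATAAA in S100a4, S100a8, S100a9 and S100g, GGGCGG in S100a16, S100a9 and S100a11, and TTNNGNAA in S100a8, S100a9 and S100g.

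S100a6 had 1189, 408 and 780.3 CPM in TGFalpha lungs, against 284, 807 and 303 CPM in control lungs. The means were 792 ± 391 CPM in TGFalpha lungs and 465 ± 296 CPM in control lungs (SD, n = 3 each), a log2 fold change of 0.77 ± 0.49 (SE, adjusted p 0.344). Control library 2 exceeded TGFalpha libraries 2 and 3, so the groups overlapped widely. S100a16 had 352, 243 and 403 CPM in TGFalpha lungs, against 154, 446 and 195 CPM in control lungs (log2 fold change 0.33 ± 0.39 SE, adjusted p 0.62). Its highest value was in a control lung. For both genes the 3 highest libraries were TGFalpha 1, TGFalpha 3 and control 2, and the lowest was control 1. Without TGFalpha library 1 and control library 1 together the log2 fold changes were 0.10 for S100a6 and 0.01 for S100a16. Without control library 2 they were 1.43 for S100a6 (adjusted p 0.139) and 0.93 for S100a16 (0.126), and without TGFalpha library 1 alone S100a6 was at 0.36.

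**Figure D4:**
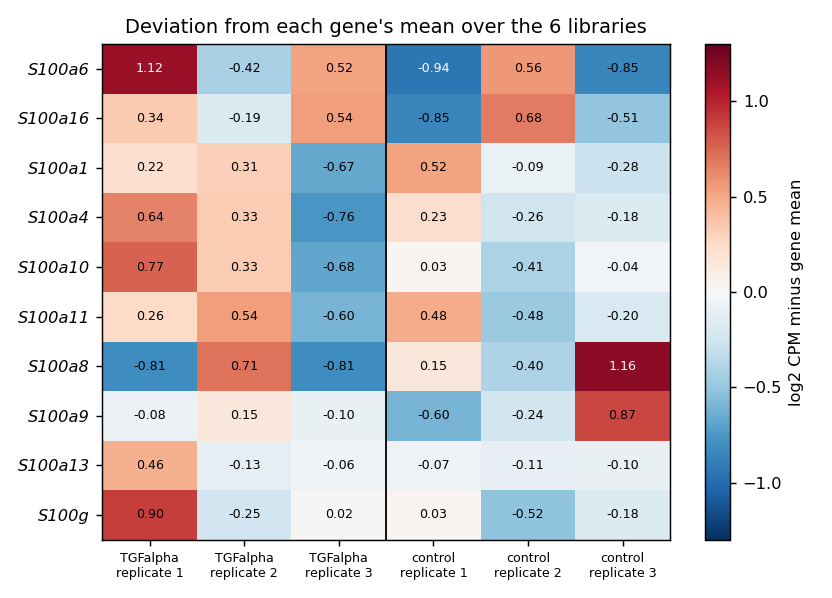
Deviation of each S100 gene from its own mean over the 6 libraries (log2 CPM), TGFalpha libraries left of control libraries, with genes ordered by which libraries are highest. S100a6 and S100a16 are lowest in control 1, at -0.94 and -0.85, while S100a1, S100a4, S100a10 and S100a11 are lowest in TGFalpha 3, between -0.60 and -0.76.

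S100a10, S100a11 and S100a4 work at the membrane and the cytoskeleton. S100a10, or p11, joins annexin A2 in a complex that binds plasminogen and its activator, and has lost the ability to bind calcium. It lies at 93555117-93564645 on chromosome 3 and had 249.8, 184 and 91.2 CPM in TGFalpha lungs, against 149.5, 110.2 and 143 CPM in control lungs (log2 fold change 0.38 ± 0.33 SE, adjusted p 0.481). TGFalpha lungs held both the highest and the lowest value. S100a11, a partner of annexin A1, lies at 93520496-93526288 and had 92.6, 113 and 51.0 CPM in TGFalpha lungs, against 108, 55.6 and 67.5 CPM in control lungs (log2 fold change 0.15 ± 0.33 SE, adjusted p 0.799). A pseudogene, S100a11-ps, is annotated elsewhere in the genome and had no row in the table. Whether it changed the S100a11 counts was not tested. S100a4, also called fibroblast-specific protein 1, binds the heavy chain of nonmuscle myosin. It lies at 90603770-90606045 and had 26.4, 21.2 and 9.93 CPM in TGFalpha lungs, against 19.9, 14.1 and 14.9 CPM in control lungs (log2 fold change 0.23 ± 0.33 SE, adjusted p 0.687). For all 3 genes and for S100a1 the highest libraries were TGFalpha 1, TGFalpha 2 and control 1, and the lowest was TGFalpha 3.

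Among 18 listed binding partners of S100 proteins, 17 were tested, 1 was called higher and 1 lower, where 8.33% of all tested genes were called, with a median log2 fold change of -0.03. Plat, the tissue plasminogen activator bound by the complex of S100a10 and annexin A2, rose to 147, 157 and 84.6 CPM in TGFalpha lungs, against 40.4, 42.6 and 40.0 CPM in control lungs (log2 fold change 1.66 ± 0.23 SE, adjusted p 0.00721). Its call was lost without control library 3, at an adjusted p of 0.0542. Ahnak, a giant scaffold protein that binds S100a10, fell to 624, 953 and 1099.8 CPM in TGFalpha lungs, against 1781, 2058 and 2258 CPM in control lungs (log2 fold change -1.19 ± 0.24 SE, adjusted p 0.0278). That call was lost without TGFalpha library 1 (0.0709) or 2 (0.064) and without control library 2 (0.0914) or 3 (0.115). The longest Ahnak transcript has 18100 bases, and with the length trend removed its log2 fold change was -0.8 (adjusted p 0.027). Anxa2 itself had 1069, 807 and 709 CPM in TGFalpha lungs, against 715, 716 and 630 CPM in control lungs (adjusted p 0.319), Anxa1 had an adjusted p of 0.876 and Anxa11 one of 0.0562. Of 12 annexins, 10 were tested, with a median log2 fold change of -0.14, 0 were called higher and 1, Anxa9, lower (log2 fold change -1.02 ± 0.26 SE, adjusted p 0.0475). Anxa9 lost its call without any of the 6 libraries, at adjusted p-values of 0.0684 to 0.157.

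Markers of the cells in which S100a4 is known were set beside it. Of 16 fibroblast genes, 7 were called higher and 0 lower, against 5.03% and 3.29% of all tested genes. No S100 member was called. The fibroblast median was 1.14 (log2 fold change), with 10 genes positive and 6 negative, the lowest at -0.61. Fibronectin (Fn1) had 1304, 2865 and 1325 CPM in TGFalpha lungs, against 199, 207 and 173 CPM in control lungs (log2 fold change 3.25 ± 0.34 SE, adjusted p 0.00232). The collagens Col1a2 and Col3a1 had log2 fold changes of 2.57 (adjusted p 0.00134) and 2.52 (0.00217). The summed fibroblast list was 8664 to 13614 CPM in TGFalpha lungs and 3911 to 4409 CPM in control lungs, without overlap. S100a4 overlapped, but as a single gene it is not a like measure to the sum. Of 17 monocyte and macrophage genes, 2 were called higher and 0 lower: Spp1, or osteopontin (log2 fold change 3.09, adjusted p 0.00155), and Fcgr1, a high-affinity immunoglobulin receptor (1.74, adjusted p 0.00697), and the list's median was -0.19. Itgax, an integrin of alveolar macrophages, had an adjusted p of 0.306. The summed macrophage list ranged from 9869 to 32333 CPM in TGFalpha lungs and from 13285 to 36025 CPM in control lungs. It was highest in TGFalpha library 2 and control library 1, which are among the 3 highest libraries of S100a4, S100a10 and S100a11, but TGFalpha library 1, highest of all for S100a4 and S100a10, stood low at 11527 CPM. Chil3 and Lyz2 made up most of this sum in every library, so its library order is mostly theirs. They had 14457 and 13215 CPM in TGFalpha library 2 and 16423 and 17183 CPM in control library 1. The part of macrophages in these S100 values was not tested.

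S100a1 is known from heart and skeletal muscle, where it binds ryanodine receptors and the calcium pump of the sarcoplasmic reticulum, and S100a13 takes part in the release of fibroblast growth factor 1 and interleukin 1 alpha by a route that skips the endoplasmic reticulum. S100a1 had 102, 109 and 55.1 CPM in TGFalpha lungs, against 126, 82.5 and 72.5 CPM in control lungs (log2 fold change -0.07 ± 0.30 SE, adjusted p 0.897). Its highest value was in control library 1 and its lowest in TGFalpha library 3. S100a13 had 47.2, 31.4 and 32.8 CPM in TGFalpha lungs, against 32.8, 31.9 and 32.1 CPM in control lungs (log2 fold change 0.20 ± 0.18 SE, adjusted p 0.507). The 5 libraries other than TGFalpha 1 lay within 31.4 to 32.8 CPM. The 2 genes lie head to head on opposite strands, S100a1 at 90511034-90514330 and S100a13 at 90514233-90524581, with 98 bases in common, and their promoter windows share 204 bases. The strand setting of the counts is not given in the sources used here, so reads from the shared bases cannot be assigned to either gene.

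Muscle markers bear on S100a1, since libraries numbered 1 held far more skeletal muscle transcript. Of 13 skeletal muscle genes, 11 were tested and 0 called by edgeR, with 0 at an unadjusted p under 0.05 and 0 by DESeq2 or limma-voom, with a median log2 fold change of 0.66. Mb, myoglobin, had 344, 6.0 and 2.64 CPM in TGFalpha lungs, against 130.1, 0.504 and 2.65 CPM in control lungs. S100a1 was high in TGFalpha library 2 as well, at 109 CPM, where the muscle sum was 90.8 CPM. With both libraries numbered 1 left out, its log2 fold change was 0.08. Of 12 cardiac muscle genes, 11 were tested, with a median of -0.74. Of these 0 were called higher and 1 lower, against 5.03% and 3.29% of all tested genes. Tnni3 and Pln, 2 further cardiac genes, had adjusted p-values of 0.0507 and 0.111. Actc1, cardiac actin, was the called gene, with 21.8, 17.9 and 8.92 CPM in TGFalpha lungs and 59.6, 32.9 and 49.1 CPM in control lungs (log2 fold change -1.54 ± 0.34 SE, adjusted p 0.035). Its call was kept only without TGFalpha library 3 (0.0448) and lost without any other library (0.0599 to 0.129). The part of muscle in the S100a1 values was not tested.

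S100g, or calbindin-D9k, is the vitamin D-dependent calcium carrier of intestinal epithelium and is the only member off chromosome 3, at 162961992-162964599 on chromosome X. It had 129, 58.1 and 70.2 CPM in TGFalpha lungs, against 70.5, 48.2 and 61.2 CPM in control lungs. The means were 85.9 ± 38.1 CPM in TGFalpha lungs and 60.0 ± 11.2 CPM in control lungs (SD, n = 3 each), a log2 fold change of 0.52 ± 0.30 (SE, adjusted p 0.303). TGFalpha library 1 was well above the other 5, which lay within 48.2 to 70.5 CPM. With the length trend removed, the value was 0.11. Of 7 genes of the calcium route in which S100g works, 4 were tested. Of these 1 was called higher and 0 lower, against 5.03% and 3.29% of all tested genes. Their median log2 fold change was 0.36, and Trpv5 and Cyp24a1 were at 0 in every library. Vdr, the vitamin D receptor, rose to 30.9, 29.3 and 23.4 CPM in TGFalpha lungs, against 13, 12.8 and 12.4 CPM in control lungs (log2 fold change 1.13 ± 0.17 SE, adjusted p 0.00833). Its call was lost without control library 3, at an adjusted p of 0.0544. Trpv6, the calcium entry channel, had an adjusted p of 0.0847 and Atp2b1, the plasma membrane calcium pump, one of 0.109.

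S100g is also found among the transcripts of alveolar type 2 cells in mice, and markers of these cells were set beside it. Of 14 alveolar type 2 genes 0 were called by edgeR, against 8.33% of all tested genes, with a median log2 fold change of 0.02. At an unadjusted p under 0.05 there were 2, against 27.0% of all tested genes. DESeq2 called 1 higher and 1 lower. Sftpc had 7539.5, 4744 and 5589 CPM in TGFalpha lungs, against 5249.7, 3456 and 3969 CPM in control lungs (adjusted p 0.282). It was highest in TGFalpha library 1 and lowest in control library 2, as S100g was. Other genes of the list had other orders: Lyz1 and Cxcl15 were lowest in TGFalpha library 1, at 1964 and 1947 CPM, and highest in control library 1, and Sftpb was lowest in TGFalpha library 2, at 1645 CPM. Napsa, the aspartic protease that processes surfactant protein, had an adjusted p of 0.0855, Lyz1 one of 0.109 and Cxcl15 one of 0.199. The part of alveolar type 2 cells in the S100g values was not tested.

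Levels of different S100 genes can be set against each other only per length, here as CPM per kilobase of the longest transcript. Over all 6 libraries S100a6 was highest, at 803 ± 458 CPM per kilobase (SD, n = 6). S100a16 followed at 265 ± 105, S100a10 at 226 ± 82.8, S100a11 at 159 ± 52.7, S100g at 152 ± 60.1 and S100a1 at 135 ± 38.4. The lower 4 were S100a8 at 55.5 ± 32.5, S100a13 at 48.5 ± 8.6, S100a9 at 38.3 ± 14.8 and S100a4 at 35.6 ± 11.9 CPM per kilobase. Each exceeded the median of all genes, 6.82 CPM per kilobase, and the members stood between percentiles 88.8 and 99.8 of all tested genes. The ranges of neighbours in this order overlapped throughout. S100a6 was above S100a16, and S100a10 above S100a11, in 6 of 6 libraries, but S100a16 was above S100a10 in only 2 and S100g above S100a1 in 3. By group, S100a6 averaged 1012 ± 499 CPM per kilobase in TGFalpha lungs and 594 ± 378 CPM per kilobase in control lungs (SD, n = 3 each).

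Outside the 10, 9 further S100 genes or partners had a row and 4 were tested, with a median log2 fold change of 0.20. Of these 1, S100b, was called higher in TGFalpha lungs and 0 lower, against 5.03% and 3.29% of all tested genes. S100b is known from glial cells, cartilage and fat and signals through Ager, and it lies on chromosome 10 at 76253836-76261319. It had 101, 82 and 82 counts in TGFalpha lungs, against 38, 12 and 14 counts in control lungs, which came to 4.29, 3.37 and 3.44 CPM in TGFalpha lungs and 1.53, 0.55 and 0.639 CPM in control lungs. Every TGFalpha value was above every control value (log2 fold change 2.02 ± 0.47 SE, adjusted p 0.0394). The call was lost without TGFalpha library 1 (adjusted p 0.121), 2 (0.0826) or 3 (0.0746) and without control library 2 (0.13) or 3 (0.16), and was kept without control library 1 (0.021). With the length trend removed its adjusted p was 0.0418. The promoter window of S100b, chr10:76253586-76253885 on the plus strand, is shown because this was the S100 gene that was called, and it holds none of the 4 motifs.
S100b: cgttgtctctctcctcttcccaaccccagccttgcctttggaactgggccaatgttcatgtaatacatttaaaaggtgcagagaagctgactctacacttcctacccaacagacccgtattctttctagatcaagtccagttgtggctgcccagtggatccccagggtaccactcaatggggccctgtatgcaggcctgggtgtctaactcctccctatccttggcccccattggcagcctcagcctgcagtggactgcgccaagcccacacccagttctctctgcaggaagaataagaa

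S100a14, an epithelial member, had 40.5, 8.43 and 20.2 CPM in TGFalpha lungs, against 28.5, 12.7 and 10.3 CPM in control lungs (adjusted p 0.663). S100a7a stayed at 1.04 CPM or less in every library (adjusted p 0.919), and S100pbp, which encodes a protein that binds S100P in humans, had an adjusted p of 0.969. S100a2, S100a3, S100a5 and S100z had 5 counts or fewer in each library and S100a7l2 had 0, so none of these was tested.

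Members on chromosome 3 form most of the mouse S100 cluster, where 9 of the 10 lie. S100a1, S100a13, S100a16, S100a4, S100a6, S100a8 and S100a9 sit together near 90511034, and S100a11 and S100a10 lie beyond a gap. Within the members' span of 3054 kilobases, 17 tested genes lie, the 9 members included, and 0 were called by edgeR, with 0 at an unadjusted p under 0.05 and 0 by DESeq2 or limma-voom. With flanks of 500000 bases on each side, the interval held 97 rows and 36 tested genes, of which 1 was called higher and 1 lower, or 5.56% against 8.33% of all tested genes, and both lay in a flank. Slc39a1, a zinc importer, had a log2 fold change of 0.88 ± 0.17 (SE, adjusted p 0.0214), and 1700094D03Rik one of -0.74 ± 0.17 (adjusted p 0.0375). The first call was lost without TGFalpha library 1 (0.0631) or 2 (0.0635) or control library 2 (0.0881) or 3 (0.116), and the second without any of the 6 libraries (0.057 to 0.122).

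**Figure D5:**
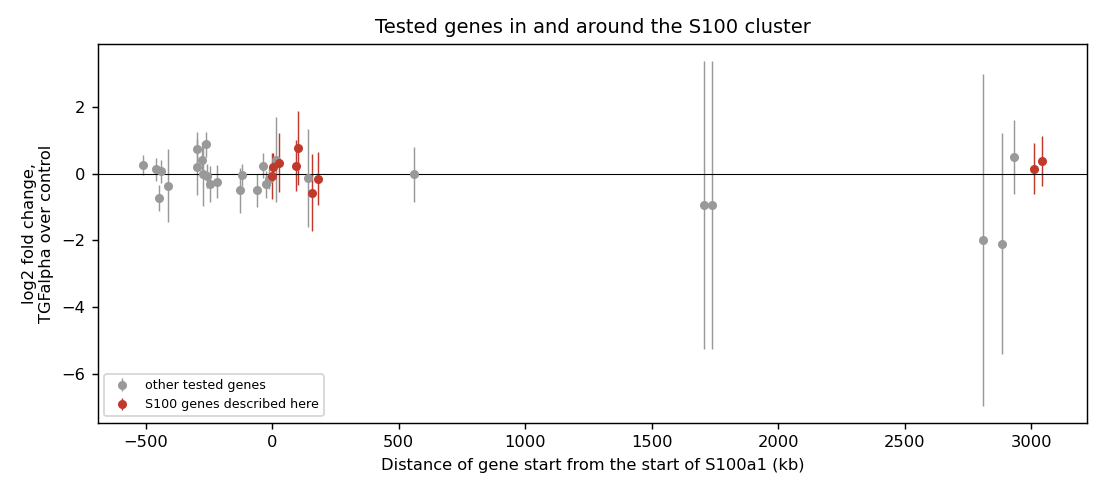
Log2 fold change, TGFalpha over control, of the 36 tested genes around the S100 cluster on chromosome 3, against distance of each gene's start from that of S100a1 in kilobases, with members and other genes in different colours and 95% confidence intervals as bars. The members scatter around 0 between -0.57 and 0.77.

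On the receptor side, 9 genes were tested, with a median log2 fold change of -0.19. Of these 1 was called higher and 1 lower, against 5.03% and 3.29% of all tested genes. Ager, the receptor of S100b and of several other S100 proteins and a marker of alveolar type 1 cells, had 489, 314 and 604 CPM in TGFalpha lungs, against 454, 744 and 609 CPM in control lungs (adjusted p 0.431). Tlr4, which binds calprotectin, had 55.5, 87.8 and 63.3 CPM in TGFalpha lungs, against 83.6, 51.8 and 65.3 CPM in control lungs (adjusted p 0.927). Both overlapped between groups. Cd36, a scavenger receptor that takes up fatty acids, fell to 1384, 1353 and 1849 CPM in TGFalpha lungs, against 2313, 3175 and 3465 CPM in control lungs (log2 fold change -0.97 ± 0.24 SE, adjusted p 0.0447). Its call was lost without TGFalpha library 1 (0.147) or 2 (0.0987) or control library 2 (0.13) or 3 (0.157). Bsg, or basigin, a receptor of S100a9, rose to 688, 514 and 536 CPM in TGFalpha lungs, against 386, 361 and 328 CPM in control lungs (log2 fold change 0.69 ± 0.17 SE, adjusted p 0.0461), a call lost without any of the 6 libraries (0.0682 to 0.183) and with the length trend removed (0.0521). Nptn, neuroplastin, had an adjusted p of 0.12.

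Other EF-hand proteins were set beside the S100 members, as a longer list, and the difference between the lists was not tested. Of 30 listed, 26 were tested and 4 were called higher and 1 lower, against 5.03% and 3.29% of all tested genes. Their median log2 fold change was 0.30. The count called higher was 1, 2 and 4 without TGFalpha libraries 1, 2 and 3 in turn, and 2, 3 and 1 without control libraries 1, 2 and 3. Rcn3, a reticulocalbin of the secretory pathway, rose to 104, 85.4 and 53.5 CPM in TGFalpha lungs, against 16.7, 20.7 and 17.6 CPM in control lungs (log2 fold change 2.14 ± 0.25 SE, adjusted p 0.00322), and kept its call without any single library (0.00172 to 0.0321). Sparc, a matrix glycoprotein, rose to 3446, 2889 and 2868 CPM in TGFalpha lungs, against 975, 1536 and 1134 CPM in control lungs (adjusted p 0.0158), a call lost without TGFalpha library 1 (0.0557) or control library 3 (0.081). Calu, calumenin, had a log2 fold change of 0.90 ± 0.19 (SE, adjusted p 0.0279), a call lost without TGFalpha library 1 (0.0875) or 2 (0.0621) or control library 1 (0.0664) or 3 (0.134).

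The remaining marker lists place these S100 values in their tissue. Their counts stand against 5.03% called higher and 3.29% called lower over all tested genes. Of 12 alveolar type 1 genes 0 were called higher and 5 lower (median log2 fold change -0.85), and of 10 endothelial genes 0 higher and 4 lower (-1.17). Of 10 ciliated cell genes 0 were called higher and 6 lower (-1.03), and of 6 blood genes 0 higher and 4 lower (-1.48). The called blood genes Hba-a1 and Hba-a2 had nearly the same counts in every library, so their calls are not separate. Without a single library the counts called lower were 0 to 6 for alveolar type 1, 0 to 10 for endothelial, 1 to 5 for ciliated, 0 to 5 for blood and 0 to 1 for club cell genes. Of 10 club cell genes 1 was higher and 3 lower (-0.50), of 13 tested genes of transitional epithelium 0 higher and 1 lower (-0.32), of 7 mesothelial genes 1 higher and 1 lower (0.63), and of 10 dendritic and T cell genes 0 higher and 1 lower (-0.55). Each count of 1 in these last 4 lists was 0 when any of at least 3 of the 6 libraries was left out. The lower gene of transitional epithelium and that of the mesothelial list were the same gene, Krt19 (adjusted p 0.0499). The summed alveolar type 1 markers (3387 to 5431 CPM in TGFalpha lungs, 5871 to 8450.2 CPM in control lungs) did not overlap between groups. Nor did the summed endothelial markers (1205 to 2233 CPM in TGFalpha lungs, 2386 to 4396 CPM in control lungs). The levels of all 10 S100 members overlapped, but a single gene and a sum over a list are not like measures. Of single tested genes, 33.2% did not overlap.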

How the data were processed

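Total RNA of mouse lung was made into Illumina libraries. The authors deposited whole-number read counts per gene for 24061 gene identifiers in 6 libraries, with no normalization. The submitters' processing notes name bcl2fastq, CASAVA 1.8, TopHat and DESeq with mm10. The counting tool, its strand setting and the annotation are not given in the sources used here. RefSeq names for GRCm38.p6 matched 23976 identifiers. The 85 unnamed ones, 1.73 to 3.8% of counts, stayed in library sizes and tests. Promoter windows are RefSeq's (GRCm38.p6) and transcript lengths GENCODE M21's, found for 94.5% of tested genes.

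Counts were tested with edgeR 4.0.16 in R 4.3.3: TMM scaling, its expression filter by group, group as the only term and Benjamini-Hochberg adjustment at 0.05. CPM use TMM-scaled library sizes, and log2 CPM a prior count of 2. Standard errors come from the coefficient and F statistic. The common biological coefficient of variation was 0.295. DESeq2 1.42.0, limma-voom (limma 3.58.1), other scalings and filters, a replicate block, an adjusted p of 0.01, each library left out, and both libraries numbered 1 left out were alternatives. Removal of the length trend was added after seeing the data. Counts of 16186 genes were simulated for TGFalpha against control, all with a coefficient of variation of 0.295. In them edgeR found 13% of the 2-fold and 94% of the 4-fold changes and made 3 false calls.

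The members and the 21 gene lists were chosen with earlier results of these data known. Named genes are the members, the other S100 genes, the 3 genes with the smallest adjusted p in a list, and called genes of the cluster interval. Tgfa, Sftpc, Ager, Tlr4, Anxa1, Csf3r, Cxcr2, Retnlg, Lcn2, Mmp8, Ngp, Ltf, Sftpb, Mpo, Elane, Chil3 and Lyz2 were added with values seen.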

Additional observations from a re-analysis of the deposited data

How the results depend on the processing

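The count of called S100 members was 0 in each direction under all 17 alternatives. Of the members' 170 fold changes under them, 159 kept their direction, 11 turned and 0 were called. The alternative with an adjusted p of 0.01 reuses the main fit, so its fold changes could not turn and no call could be gained there. Without a single library the log2 fold change of S100a1 lay between -0.25 and 0.19, of S100a4 between -0.07 and 0.54, of S100a9 between -0.43 and 0.4, of S100a11 between -0.1 and 0.47, of S100a13 between -0.00339 and 0.31, of S100a14 between -0.26 and 1.0, of S100a7a between -0.43 and 0.51 and of S100pbp between -0.37 and 0.2. The direction held, with a range of 0.36 to 1.43 for S100a6, -1.26 to -0.02 for S100a8, 0.04 to 0.69 for S100a10, 0.05 to 0.93 for S100a16 and 0.1 to 0.74 for S100g. With both libraries numbered 1 left out, S100a1 was at 0.08, S100a7a at 0.35 and S100pbp at 0.02. With the length trend removed, S100a4 was at -0.2, S100a11 at -0.21, S100a13 at -0.13 and S100pbp at 0.02. S100pbp was at 0.07 by limma-voom, where the calls of Prtn3 (adjusted p 0.0913) and Anxa9 (0.0537) were lost. With both libraries numbered 1 left out, the calls of Vdr (0.0519), Ahnak (0.0565), Actc1 (0.0612), Sparc (0.0644), Slc39a1 (0.0789), Cd36 (0.081), Prtn3 (0.093), 1700094D03Rik (0.0989), Ptgs2 (0.101), Calu (0.125), Bsg (0.134) and Anxa9 (0.154) were lost as well. Over all genes, 810 were higher and 530 lower; DESeq2 gave 1279 higher and 1214 lower, an adjusted p of 0.01 gave 227 and 33, both libraries numbered 1 left out gave 307 and 166, and leaving out a single library gave 204 to 606 and 34 to 482. The causes were not tested. Same-numbered libraries correlated at 0.421, -0.0516 and 0.222 in their deviations, so the numbers were not taken as pairs. With replicate number as a block, 802 genes were higher and 668 lower, 0 members were called, S100pbp was at 0.07 and S100b had an adjusted p of 0.0283, while Anxa9 (0.0502), Bsg (0.0551) and 1700094D03Rik (0.0579) were no longer called. In simulated counts, where every gene had a coefficient of variation of 0.295, 13% of 2-fold changes were called. The members' within-group SD of log2 CPM had a median of 0.551, against 0.28 over all tested genes, so 13% is not their own rate. How often a 2-fold change in a member would be called was not tested, which limits what 0 called members can show.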
